A study of Homo sapiens with 6 samples.

Results

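The tumor necrosis factor (TNF) superfamily ligands and receptors were examined in LX-2 cells, an established human hepatic stellate cell line. Members were taken by gene symbol, as every TNFSF and TNFRSF gene together with TNF, LTA, LTB, LTBR, CD40, FAS, FASLG, CD70, CD27, EDAR and EDA2R. This gave 43 of the 60748 genes in the count table, comprising 16 ligands and 27 receptors. The choice went by symbol and not by level or change, but it was made with earlier results of these data known, as were the gene lists below. LX-2Vector cells carried an empty lentiviral vector and LX-2FAP cells the same vector with FAP, which encodes the membrane serine protease fibroblast activation protein α, and 3 libraries were sequenced from each. Both groups were kept in DMEM with fetal bovine serum and cultured for 24 h before RNA was taken. Both are stable lines that were selected with puromycin and carry an EGFP reporter, and the inserted gene is driven by a ubiquitin promoter. The comparison asked what overexpression of FAP changes in the transcripts of a stellate cell line. Other differences between the selected stable lines cannot be told apart from overexpression of FAP in this design. Whether the 3 libraries of a group came from separate cultures was not given in the sources used here, so p-values measure the spread between these libraries, which may be technical.

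Total counts ran from 17355700 to 26352060 per library. FAP had 42 to 55 counts in the LX-2Vector libraries and 14805 to 15160 in the LX-2FAP libraries (log2 fold change 8.33 with an SE of 0.13, adjusted p = 4.47e-16 by edgeR), so each library matched its label. On the first principal component, which held 36.2% of the variance, LX-2FAP replicate 1 lay at 1.91, nearer to the LX-2Vector libraries (-20.7 to -11.6) than LX-2FAP replicates 2 and 3 (25.4 and 17). Of 15 stellate cell and fibroblast markers, 9 reached 1 FPKM (reads of a gene scaled by its length and by the library total) in at least 1 library, among them COL1A1, COL3A1, PDGFRB, VIM and ACTA2, whereas COL1A2, PDGFRA, THY1, DES, DCN and LUM stayed under 1 FPKM in every library. Their summed level was 535 to 571 FPKM in LX-2Vector and 541 to 563 FPKM in LX-2FAP.

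Ligands of this family are made as trimers on the cell surface, from which several are shed by proteases such as ADAM17. Their receptors fall into classes by what the cytoplasmic tail recruits. Death domain receptors bind adaptors such as FADD and TRADD and can start caspase-mediated killing, TRAF-binding receptors recruit TRAF proteins and switch on NF-κB and MAP kinases, and decoy receptors bind ligand without passing a full signal. In the liver, TNF and its relatives are best known as products of macrophages and lymphocytes, and stellate cells are a target of these signals.

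As transcripts, LX-2 cells had much receptor and little ligand. Receptors summed to 246.1 ± 5.03 FPKM in LX-2Vector and 240.2 ± 8.70 FPKM in LX-2FAP (SD, n = 3 each), and ligands to 15.2 ± 0.891 and 14.7 ± 0.823 FPKM. In FPKM the receptor sums of the 2 groups overlapped, as did the ligand sums. In normalized CPM, which weighs long transcripts more, the receptor sums did not overlap, at 859.7 to 882.7 in LX-2Vector and 830.9 to 855.8 in LX-2FAP, and the sums of the death domain receptors overlapped on neither scale (85.5 to 89.2 against 78.2 to 82.4 FPKM). In every library, 13 of the 27 receptors but 3 of the 16 ligands reached 1 FPKM, and 6 receptors and no ligand reached 10 FPKM. TNFRSF9 fell in LX-2FAP cells and was the only member called, at an adjusted p under 0.05 with the edgeR quasi-likelihood test. The 33 members that passed the expression filter thus gave 1 call, beside 5.29% of all 18275 tested genes. At an unadjusted p under 0.05 there were 8 members, where 22.2% of all tested genes passed. The log2 fold change was below 0 for 23 of the 33 members, beside 53.0% of all tested genes, and its median over the members was -0.107, beside -0.013 over all tested genes. With the trend on GC content removed from each library these medians were -0.043 and 0.000.

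**Figure D1:**
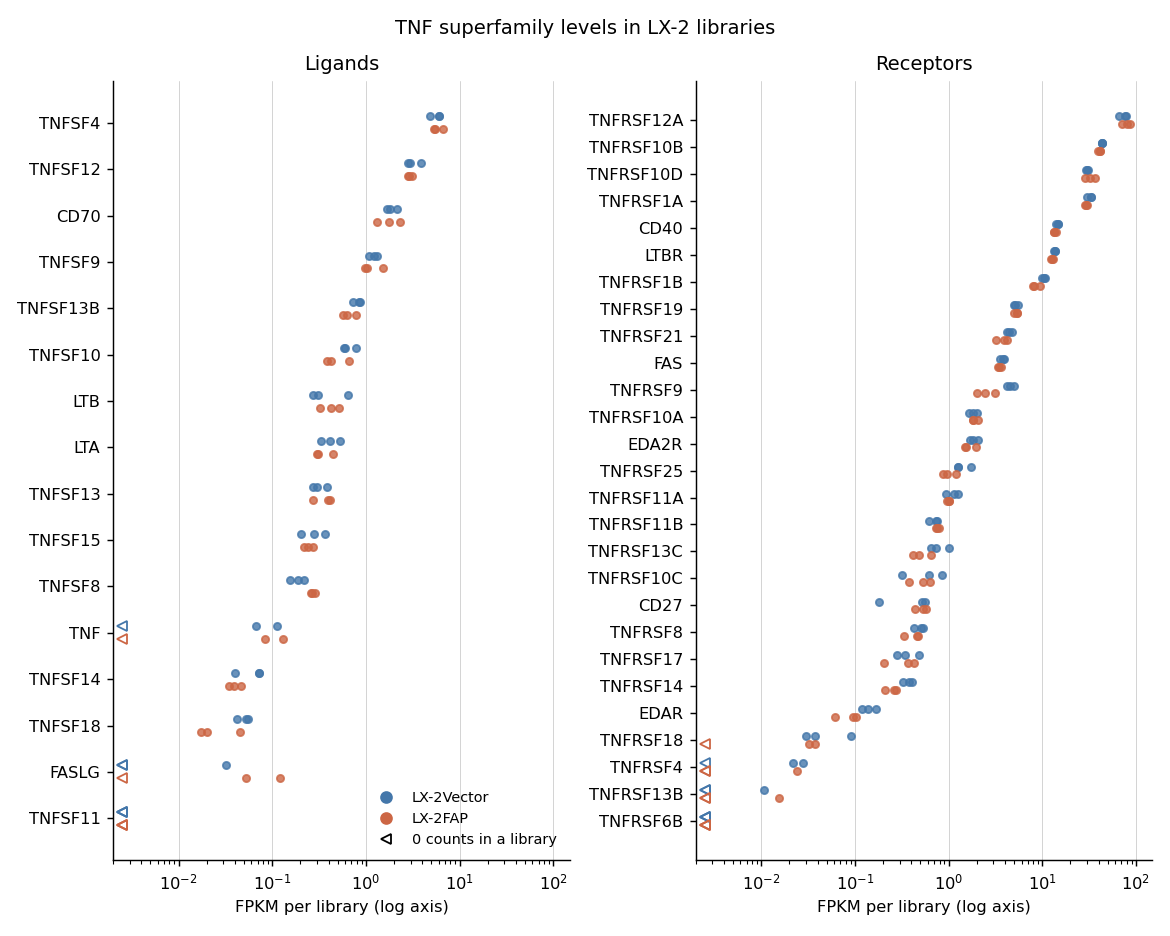
FPKM of the 43 members on a log axis in each of the 3 LX-2Vector and 3 LX-2FAP libraries, with ligands and receptors each ordered by level. Points are single libraries and open triangles at the left edge mark libraries with 0 counts; TNFRSF12A, TNFRSF10B, TNFRSF1A and TNFRSF10D head the receptors, while no ligand reaches 10 FPKM in any library.

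Among the ligands, TNFSF4, TNFSF12 and CD70 held most of the signal, and none of the 11 tested ligands was called by edgeR or by DESeq2. At an unadjusted edgeR p under 0.05 there was 1, beside 22.2% of all tested genes. TNFSF4 (OX40 ligand, a costimulator of T cells; ENSG00000117586, GRCh38 chromosome 1, 173183734 to 173207313) was the most abundant and held 36.8% of ligand FPKM in LX-2Vector on average. Its level was 4.81, 5.99 and 5.96 FPKM in LX-2Vector replicates 1 to 3 and 5.42, 5.40 and 6.70 FPKM in LX-2FAP replicates 1 to 3. The groups overlapped, and the log2 fold change of LX-2FAP over LX-2Vector was 0.10 (SE 0.10, adjusted p = 0.586 by edgeR). TNFSF12 (TWEAK, the ligand of TNFRSF12A; ENSG00000239697, chromosome 17, 7548891 to 7557890) was at 2.82, 2.99 and 3.87 FPKM in LX-2Vector and 2.86, 3.07 and 2.81 FPKM in LX-2FAP. Its log2 fold change was -0.12 (SE 0.13, adjusted p = 0.651 by edgeR), and 29.4% of its exon bases also belong to the readthrough gene TNFSF12-TNFSF13, so its counts are uncertain. CD70, the ligand of CD27 (ENSG00000125726, chromosome 19, 6583183 to 6604103), was at 2.13, 1.70 and 1.80 FPKM in LX-2Vector and 1.78, 2.29 and 1.32 FPKM in LX-2FAP (log2 fold change -0.06 with an SE of 0.19, adjusted p = 0.888 by edgeR). The 95% interval of the CD70 log2 fold change ran from -0.47 to 0.34, so a change of either sign within that range was not detectable at this depth.

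TNFSF8 (CD30 ligand; ENSG00000106952, chromosome 9, 114893343 to 114930595) was the only ligand whose groups did not overlap. It had 19, 15 and 21 counts in LX-2Vector and 32, 22 and 26 in LX-2FAP, or 0.719, 0.855 and 0.987 against 1.34, 1.22 and 1.24 CPM (counts scaled to the normalized library size). All 3 LX-2FAP libraries were thus above all 3 LX-2Vector libraries, at a low level. The log2 fold change was 0.59 (SE 0.23) and met the study's cutoff, which asks for more than a 1.2-fold change and a p under 0.05 (taken here as unadjusted, which the study does not state), but it was not called (adjusted p = 0.146 by edgeR). Its receptor TNFRSF8 was at 0.489 ± 0.0584 and 0.420 ± 0.0749 FPKM (SD, n = 3).

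The remaining ligands were low. TNFSF9, TNFSF13B, TNFSF10, LTA, LTB, TNFSF13 and TNFSF15 had mean levels from 0.245 to 1.203 FPKM in either group, with adjusted p-values from 0.352 to 0.966. They include TNFSF9, the ligand of TNFRSF9, at 1.203 ± 0.117 FPKM in LX-2Vector and 1.18 ± 0.291 FPKM in LX-2FAP, and TNFSF10 (TRAIL, the ligand of TNFRSF10A to TNFRSF10D) at 0.656 ± 0.113 and 0.489 ± 0.150 FPKM (SD, n = 3). TNFSF13 shares 55.5% of its exon bases with TNFSF12-TNFSF13. TNF, the founding member, was nearly silent, with 3, 0 and 4 reads in the LX-2Vector libraries and 0, 4 and 3 reads in the LX-2FAP libraries. FASLG, TNFSF14 and TNFSF18 had between 0 and 9 counts, and TNFSF11 (RANKL) had no count in any library, which allows up to 3 counts per library. That limit covers counting error only, whereas the intervals come from the edgeR fit and also take in the spread between these libraries.

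The death domain receptors were led by TNFRSF10B and TNFRSF1A, and none of the 7 was called by edgeR or by DESeq2. At an unadjusted edgeR p under 0.05 there were 3, all lower, beside 22.2% of all tested genes. TNFRSF10B (DR5, a TRAIL receptor that can trigger apoptosis; ENSG00000120889, chromosome 8, 23020133 to 23069179) was at 43.0, 43.7 and 43.6 FPKM in LX-2Vector and 41.1, 39.4 and 41.2 FPKM in LX-2FAP. The groups did not overlap, but the difference was small, with a log2 fold change of -0.07 (SE 0.04, adjusted p = 0.309 by edgeR). TNFRSF1A (TNF receptor 1, which binds TNF on most cells; ENSG00000067182, chromosome 12, 6328757 to 6342114) was at 32.9, 30.3 and 33.5 FPKM in LX-2Vector and 30.3, 29.2 and 28.6 FPKM in LX-2FAP. By CPM, LX-2FAP replicate 1 (122.4) lay above LX-2Vector replicate 2 (120.2), so the groups overlapped, and the log2 fold change was -0.11 (SE 0.05, adjusted p = 0.194 by edgeR). TNFRSF25 (DR3, the receptor of TNFSF15; ENSG00000215788, chromosome 1, 6460786 to 6466195) was at 5.38, 5.30 and 7.24 CPM in LX-2Vector and 5.21, 3.72 and 4.15 CPM in LX-2FAP. It met the study's cutoff with no overlap, LX-2FAP replicate 1 lying just under LX-2Vector replicate 2. Its log2 fold change was -0.44 (SE 0.15, adjusted p = 0.105 by edgeR) and, without LX-2FAP replicate 1, -0.59 and called (adjusted p = 0.0303 by edgeR). With no filter on low counts it was also called, at the same log2 fold change of -0.44. TNFRSF21, FAS, TNFRSF10A and EDAR had log2 fold changes from -0.62 to 0.07 and adjusted p-values from 0.224 to 0.798. EDAR, the receptor of ectodysplasin, was also without overlap, at 5 to 14 counts per library.

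Of the 4 decoy receptors, TNFRSF10D alone was abundant. None of the 3 that were tested was called by edgeR or by DESeq2 or had an unadjusted p under 0.05. TNFRSF10D, a TRAIL receptor with a truncated death domain (ENSG00000173530, chromosome 8, 23135588 to 23164030), was at 31.0, 30.3 and 29.6 FPKM in LX-2Vector and 28.2, 36.2 and 32.5 FPKM in LX-2FAP. LX-2FAP replicate 1 was the lowest of the 6 libraries and LX-2FAP replicate 2 the highest. The log2 fold change was 0.12 (SE 0.07, adjusted p = 0.322 by edgeR), and without LX-2FAP replicate 1 it was 0.21 and called (adjusted p = 0.0195 by edgeR). Beside TNFRSF10B, its FPKM ratio was 0.697 ± 0.0211 in LX-2Vector and 0.798 ± 0.116 in LX-2FAP (SD, n = 3), with overlap between the groups. TNFRSF11B (osteoprotegerin, which binds RANKL) was at 0.700 ± 0.0716 and 0.759 ± 0.0240 FPKM, and TNFRSF10C at 0.597 ± 0.270 and 0.516 ± 0.134 FPKM (SD, n = 3). TNFRSF10C shares 39.3% of its exon bases with other genes. TNFRSF6B had no count in any library, but all of its exon bases also belong to the readthrough gene RTEL1-TNFRSF6B, so the 0 does not show that its transcript was absent.

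TNFRSF9 (CD137, a costimulatory receptor best known on activated T cells) was among the TRAF-binding receptors. It lies on GRCh38 chromosome 1 from 7915894 to 7943165 on the minus strand (ENSG00000049249, protein coding), and shares no exon bases with another gene. Replicates 1 to 3 gave 763, 462 and 671 reads in LX-2Vector and 480, 234 and 327 reads in LX-2FAP. Normalized, these were 28.9, 26.3 and 31.5 CPM against 20.03, 13.0 and 15.6 CPM. All 3 LX-2FAP libraries lay below all 3 LX-2Vector libraries, and LX-2FAP replicate 1, which lay nearest to LX-2Vector on the first principal component, was the highest of the LX-2FAP libraries. The mean fell from 28.9 ± 2.61 to 16.2 ± 3.55 CPM (SD, n = 3). The log2 fold change was -0.82 (SE 0.11, 95% interval -1.06 to -0.58, adjusted p = 0.00283 by edgeR), or 0.566 times the LX-2Vector level, and TNFRSF9 ranked 13 of all tested genes by p. It was called in each of the 6 fits without 1 library, with log2 fold changes from -1.01 to -0.69, and was not called by limma-trend on FPKM (adjusted p = 0.112 and 0.113), which called 2 genes in all.

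In bulk RNA, fewer cells with the transcript and less transcript per cell cannot be told apart. Because TNFRSF9 is best known on lymphocytes, markers of T and NK cells were read beside it. All 8 were under 1 FPKM in every library, IL2RA had no count, and their sum was 1.73 to 1.81 FPKM in LX-2Vector and 1.02 to 1.2 FPKM in LX-2FAP, without overlap. Of the 2 that could be tested, 0 were called by edgeR or DESeq2 and 0 had an unadjusted p under 0.05. TNFRSF9 alone was at 4.59 ± 0.412 FPKM in LX-2Vector and 2.52 ± 0.558 FPKM in LX-2FAP (SD, n = 3). Of 5 pan-leukocyte markers, PTPRC, CD53 and CORO1A stayed under 1 FPKM in every library, while LCP1 and LAPTM5 reached it. The 5 summed to 9.94 to 10.9 FPKM in LX-2Vector and 10.3 to 10.5 FPKM in LX-2FAP. LCP1 was called higher (log2 fold change 0.24, adjusted p = 0.0416 by edgeR). Among B cell, myeloid, endothelial, hepatocyte and epithelial markers, VWF alone was called (-1.06, adjusted p = 0.0268 by edgeR). Stellate cell genes also differed. Of the 13 tested markers of that list 4 were called, beside 5.29% of all tested genes. COL3A1 (log2 fold change -0.69), COL1A1 (-0.40) and PDGFRB (-0.38) were lower and VIM (0.13) was higher. The part of any of these marker lists in the TNFRSF9 result was not tested.

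TNFRSF9 is a textbook NF-κB target, so the 250 bases before each RefSeq start (GRCh38.p14) were searched on both strands for the kappaB consensus, allowing overlapping matches. A match was present for 9 of the 29 members with a promoter entry (31%), beside 11.8% of the 27305 genes with one. Among tested genes with an entry it was 7 of 21 members (33.3%), beside 15.4% of all. Windows of 30 bases around a match are given below for TNFRSF9, the called member, for TNFRSF14, a member at the study's cutoff, for FAS, a member that was not called, and for NFKBIA and NFKB2, called pathway genes. Capitals mark the bases of the match, or of 2 or 3 overlapping matches in TNFRSF9, TNFRSF14 and NFKB2, and each is written 5′ to 3′ on the strand of its gene.
TNFRSF9, chr1:7940893-7940922, minus strand: agctgtggtGGGAATTTCCCatgagacccc
TNFRSF14, chr1:2556276-2556305, plus strand: atggactttGGGGGGCTCCCCcttctacag
FAS, chr10:88991264-88991293, plus strand: ggtcgctggaGGGGGACCCCggttggagag
NFKBIA, chr14:35404811-35404840, minus strand: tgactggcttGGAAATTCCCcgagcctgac
NFKB2, chr10:102394462-102394491, plus strand: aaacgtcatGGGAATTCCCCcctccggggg
The match of TNFRSF9 begins 74 bases before the RefSeq start, in a window that overlaps an annotated exon in GENCODE release 29, and that of NFKBIA 81 bases before its start, outside annotated exons. FAS carries a match without a call (log2 fold change -0.08, adjusted p = 0.565 by edgeR), and of the 9 called genes of the pathway lists with a promoter entry, 2 carry a match. Of the other members at the study's cutoff, TNFRSF25 has an entry without a match, and TNFRSF13C and TNFSF8 have no entry. TNFRSF1B, also lower but not called, has an entry without a match. A match is a description of letters and not a measured site. An AP-1 match (TGANTCA, both strands) also lay 44 bases before the TNFRSF9 start, and 6.57% of all promoter entries hold that motif.

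**Figure D2:**
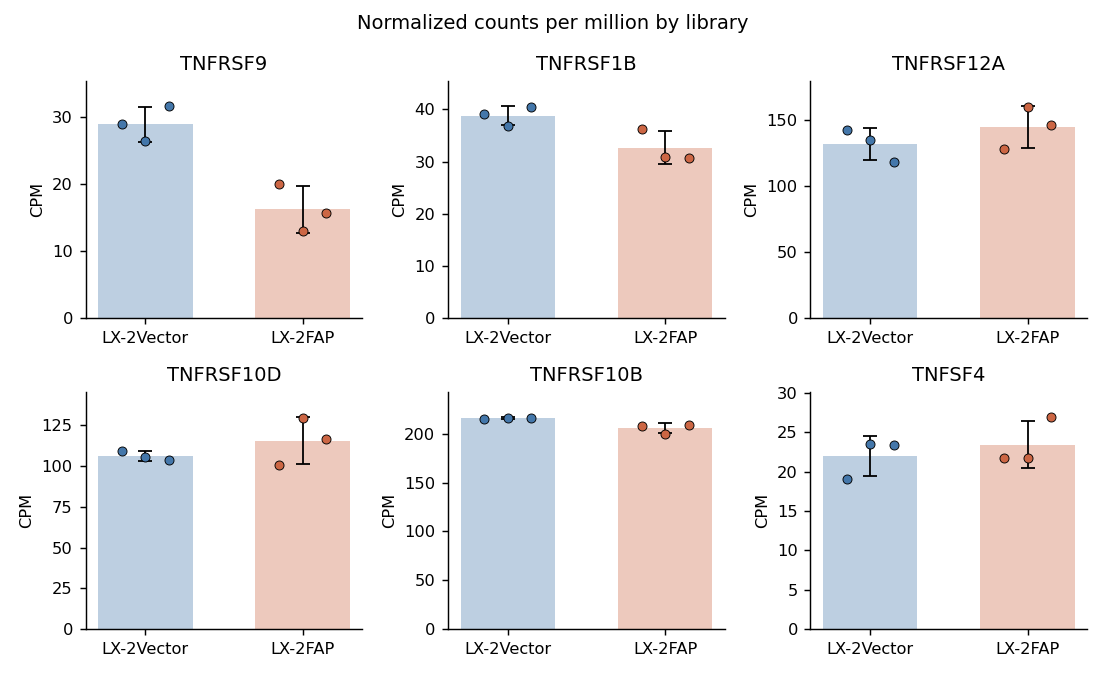
Normalized CPM in each of the 6 libraries for TNFRSF9, TNFRSF1B, TNFRSF12A, TNFRSF10D, TNFRSF10B and TNFSF4. Each point is 1 library, each bar the mean of a group and each error bar its SD (n = 3); the LX-2FAP points of TNFRSF9 (13.0 to 20.03 CPM) all lie below those of LX-2Vector (26.3 to 31.5 CPM).

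The other TRAF-binding receptors were led by TNFRSF12A and CD40. TNFRSF12A (Fn14, the TWEAK receptor; ENSG00000006327, chromosome 16, 3018445 to 3022383) was the most abundant member of the family, with 29.9% of receptor FPKM in LX-2Vector. It was at 79.0, 75.5 and 66.3 FPKM in LX-2Vector and 70.5, 87.2 and 79.8 FPKM in LX-2FAP, with overlap (log2 fold change 0.13 with an SE of 0.07, adjusted p = 0.309 by edgeR). With the trend on GC content removed its log2 fold change was 0.26 and not called (adjusted p = 0.0737 by edgeR), and without LX-2FAP replicate 1 it was 0.21 and called (adjusted p = 0.0486 by edgeR). Its lowest library lay above the highest of TNFRSF10B, the next receptor by level, whereas the ranges of TNFRSF1A and TNFRSF10D overlapped. The FPKM ratio of TNFRSF12A to its ligand TNFSF12 was 23.5 ± 5.67 in LX-2Vector and 27.2 ± 2.15 in LX-2FAP (SD, n = 3). CD40, the receptor of CD40 ligand (ENSG00000101017, chromosome 20, 46118272 to 46129863), was at 14.6, 14.1 and 14.7 FPKM in LX-2Vector and 13.3, 13.9 and 13.4 FPKM in LX-2FAP. All LX-2FAP levels of CD40 were lower in FPKM, but the normalized CPM overlapped (log2 fold change -0.07 with an SE of 0.06, adjusted p = 0.52 by edgeR).

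TNFRSF1B (TNF receptor 2, which has no death domain and binds TRAF2; ENSG00000028137, chromosome 1, 12167003 to 12209228) lay just outside the threshold. It was at 39.1, 36.8 and 40.3 CPM in LX-2Vector and 36.3, 30.9 and 30.6 CPM in LX-2FAP, so that LX-2FAP replicate 1 lay just under the lowest LX-2Vector library. The log2 fold change was -0.25 (SE 0.07, adjusted p = 0.0516 by edgeR). It was called in 6 of 16 alternatives, among them DESeq2 (adjusted p = 0.045) and the fit without LX-2FAP replicate 1 (-0.33), and was -0.15 and not called with the trend on GC content removed. The FPKM ratio of TNFRSF1A to TNFRSF1B was 3.12 ± 0.0448 in LX-2Vector and 3.46 ± 0.240 in LX-2FAP (SD, n = 3).

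TNFRSF14 and TNFRSF13C met the study's cutoff at low levels but were not called. TNFRSF14 (HVEM, a receptor of TNFSF14; ENSG00000157873, chromosome 1, 2555639 to 2565382) had 54, 44 and 49 counts in LX-2Vector and 39, 24 and 36 in LX-2FAP, or 2.04, 2.51 and 2.30 against 1.63, 1.33 and 1.72 CPM. The groups did not overlap, and the log2 fold change was -0.52 (SE 0.18, adjusted p = 0.103 by edgeR). An antisense gene covers 13.4% of its exon bases, and without knowledge of strand in the counting the reads of the 2 genes cannot be told apart. TNFRSF13C (BAFF receptor, which binds TNFSF13B; ENSG00000159958, chromosome 22, 41922023 to 41926818) was at 2.54, 2.85 and 3.90 CPM in LX-2Vector and 2.59, 1.67 and 1.91 CPM in LX-2FAP. LX-2FAP replicate 1 lay within the LX-2Vector range, and the log2 fold change was -0.56 (SE 0.21, adjusted p = 0.118 by edgeR), or -0.77 and called without that library (adjusted p = 0.0374 by edgeR). In all, 5 members met the cutoff, TNFSF8 higher and TNFRSF9, TNFRSF14, TNFRSF25 and TNFRSF13C lower, beside 7.89% of all tested genes (1.45% higher and 6.44% lower). Groups did not overlap for 8 members, 7 lower and 1 higher, beside 13.4% lower and 13.0% higher of all tested genes (26.4% in all).

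The other TRAF-binding receptors were LTBR, TNFRSF19, EDA2R, TNFRSF11A, TNFRSF8 and CD27, with log2 fold changes from -0.20 to 0.31 and adjusted p-values from 0.44 to 0.718. LTBR, the lymphotoxin β receptor, was at 13.6 ± 0.118 FPKM in LX-2Vector and 12.7 ± 0.279 FPKM in LX-2FAP, and TNFRSF19 at 5.16 ± 0.255 and 5.23 ± 0.233 FPKM (SD, n = 3). CD27 shares 37% of its exon bases with an antisense gene. TNFRSF17, TNFRSF18, TNFRSF4 and TNFRSF13B, which are known mainly from B and T cells, had 13 counts or fewer in every library and were not tested. Among family genes that the symbols leave out, NGFR was at 7.65 FPKM in LX-2Vector and 7.74 FPKM in LX-2FAP on average, RELT at 4.72 and 4.56, EDA at 0.701 and 0.523, and CD40LG had at most 1 count in a library.

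**Figure D3:**
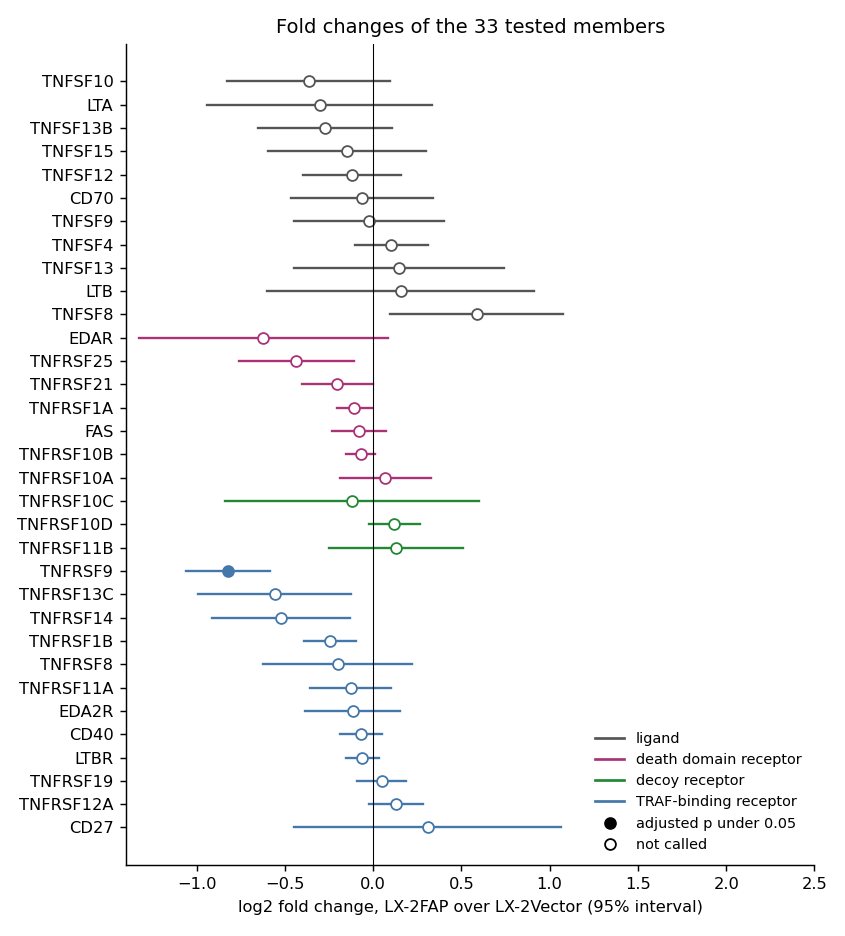
Log2 fold changes of LX-2FAP over LX-2Vector for the 33 tested members with 95% intervals, colored by role. Filled points are called at an edgeR adjusted p under 0.05; TNFRSF9 (-0.82) is the only filled point, and TNFSF8 (0.59) lies farthest to the right.

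The adaptors and signalling proteins beneath these receptors were examined as a list of 46 genes, which runs from TRADD, FADD and the TRAF proteins to the IκB kinases, NF-κB subunits and sheddases. Of the 45 that were tested, 4 fell and 0 rose at an edgeR adjusted p under 0.05, beside 2.73% of all tested genes lower and 2.57% higher. At an unadjusted p under 0.05 there were 16 of 45, 12 lower and 4 higher, beside 22.2% of all tested genes. DESeq2 called 5, all lower, beside 1031 of all 18275 tested genes. The median log2 fold change was -0.061. RHBDF2 (iRhom2, which ADAM17 needs to mature and to shed TNF) fell from 42.0 ± 3.82 to 29.7 ± 1.32 CPM (SD, n = 3), and its log2 fold change of -0.50 had an SE of 0.07 (adjusted p = 0.00283 by edgeR). Its libraries were at 40.1, 39.5 and 46.4 CPM in LX-2Vector and 31.2, 28.7 and 29.3 CPM in LX-2FAP. NFKB2, which encodes the p100 and p52 subunit of NF-κB, was at 79.5, 82.4 and 83.8 CPM in LX-2Vector and 70.0, 66.7 and 61.7 CPM in LX-2FAP libraries (log2 fold change -0.31 with an SE of 0.05, adjusted p = 0.00765 by edgeR). Its partner RELB fell by 0.34 on the log2 scale (SE 0.09, adjusted p = 0.0339 by edgeR). TRAF1, a TRAF protein that binds TNFRSF9 and TNFRSF1B, was at 22.4, 22.9 and 23.4 CPM in LX-2Vector and 18.9, 16.96 and 14.1 CPM in LX-2FAP libraries (log2 fold change -0.45 with an SE of 0.09, adjusted p = 0.0134 by edgeR). None of these 4 genes overlapped between the groups. Groups did not overlap for 15 of the 45 tested, 10 lower and 5 higher, beside 13.4% lower and 13.0% higher of all tested genes. The highest 2 of the list by FPKM were TAB2 (log2 fold change 0.01, SE 0.04) and BIRC2 (0.05, SE 0.05), neither of which was called. With the trend on GC content removed, NFKB2 (-0.19) and RELB (-0.20) were not called, while BIRC3, RHBDF2 and TRAF1 were. That fit called 454 genes in all, against 967 without the removal. Without LX-2FAP replicate 3, RHBDF2 alone of the list was called, and 26 genes were called in all.

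A second list held 30 genes that are known to respond to TNF. Of the 27 that were tested, 7 fell and 0 rose at an edgeR adjusted p under 0.05, beside the same 2.73% lower and 2.57% higher of all tested genes. At an unadjusted p under 0.05 there were 16, 14 lower and 2 higher, beside 22.2% of all tested genes. DESeq2 called 7, all lower, beside 1031 of all 18275 tested genes, and the median log2 fold change by edgeR was -0.207. MMP9, a gelatinase that degrades matrix, had the largest called change of the list, at 19.3, 19.6 and 25.1 CPM in LX-2Vector and 14.6, 9.90 and 10.4 CPM in LX-2FAP libraries (log2 fold change -0.86 with an SE of 0.13, adjusted p = 0.0044 by edgeR). As for TNFRSF9, LX-2FAP replicate 1 was the highest of the LX-2FAP libraries and still below LX-2Vector. ICAM1, a leukocyte adhesion molecule, was at 25.5, 24.0 and 29.7 CPM against 21.6, 16.5 and 15.6 CPM (log2 fold change -0.55 with an SE of 0.11, adjusted p = 0.0122 by edgeR). SOD2, the mitochondrial superoxide dismutase, was the most abundant of the called genes by CPM at 508.5 ± 68.5 against 368.9 ± 47.1 CPM (SD, n = 3, log2 fold change -0.46 with an SE of 0.08, adjusted p = 0.00957 by edgeR). NFKBIA, the IκBα inhibitor that NF-κB itself induces, was at 72.6, 76.6 and 82.6 CPM against 68.4, 51.5 and 53.2 CPM (log2 fold change -0.41 with an SE of 0.08, adjusted p = 0.0142 by edgeR). TNFAIP2, ZC3H12A (a ribonuclease that cuts cytokine transcripts) and BCL3 (a nuclear IκB protein) also fell, by 0.38, 0.33 and 0.44 on the log2 scale (adjusted p = 0.00823, 0.0246 and 0.0293 by edgeR). With the trend on GC content removed, ZC3H12A (-0.22) and BCL3 (-0.29) were not called, and each lost its call in 9 of 16 alternatives. The fit with that trend removed called 454 genes in all, against 967 without the removal. The called genes are not of a single function, since NFKBIA, ZC3H12A and BCL3 are regulators of the response, and MMP9, ICAM1 and SOD2 act elsewhere in the cell or outside it.

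Not every TNF-responsive gene was lower. At the study's cutoff 10 of the list were lower and 2 higher, beside 6.44% and 1.45% of all tested genes. The 2 higher, chosen here after their values were seen, were BCL2A1, a BCL2 relative that opposes apoptosis, at 2.498, 2.735 and 3.103 CPM in LX-2Vector and 3.71, 4.11 and 3.63 CPM in LX-2FAP, and the cytokine CSF2, at 2.16, 2.91 and 2.96 against 3.30, 3.67 and 3.53 CPM. Neither overlapped between the groups and neither was called (log2 fold changes of 0.46 and 0.40, adjusted p = 0.0751 and 0.147 by edgeR). Groups did not overlap for 11 of the 27 tested, 9 lower and 2 higher, beside 13.4% lower and 13.0% higher of all tested genes. The highest 2 of the list by FPKM were CXCL8, a neutrophil chemokine at 63.6 and 59.2 FPKM on average, and IER3 at 30.2 and 30.03 FPKM, with log2 fold changes of -0.07 (SE 0.10) and 0.02 (SE 0.06), and neither was called. Groups overlapped for both. Genes of the antisense strand cover 23.6% of the exon bases of ICAM1, 18.4% of those of MMP9 and 26.5% of those of IER3. Without LX-2FAP replicate 3, MMP9 alone of the list was called, without LX-2FAP replicate 2 there were 3 (MMP9, SOD2 and TNFAIP2), and without LX-2FAP replicate 1 there were 12. The same fits called 26, 129 and 1949 genes in all, against 967 with all libraries.

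**Figure D4:**
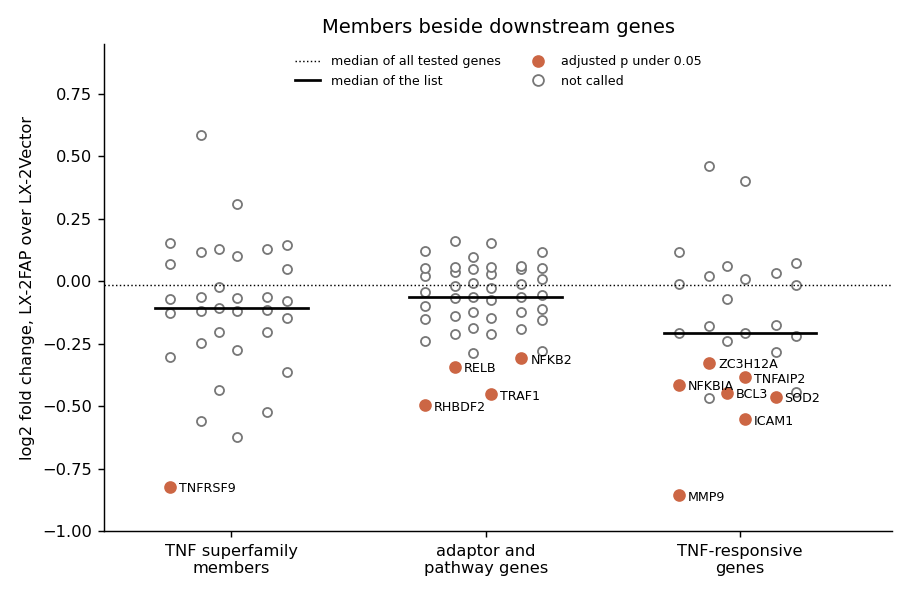
Log2 fold changes of the tested genes of the 3 lists, each point 1 gene, filled where called at an edgeR adjusted p under 0.05. Solid lines are the medians of the lists (-0.107, -0.061 and -0.207) and the dotted line that of all tested genes (-0.013); all filled points lie below 0.

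**Figure D5:**
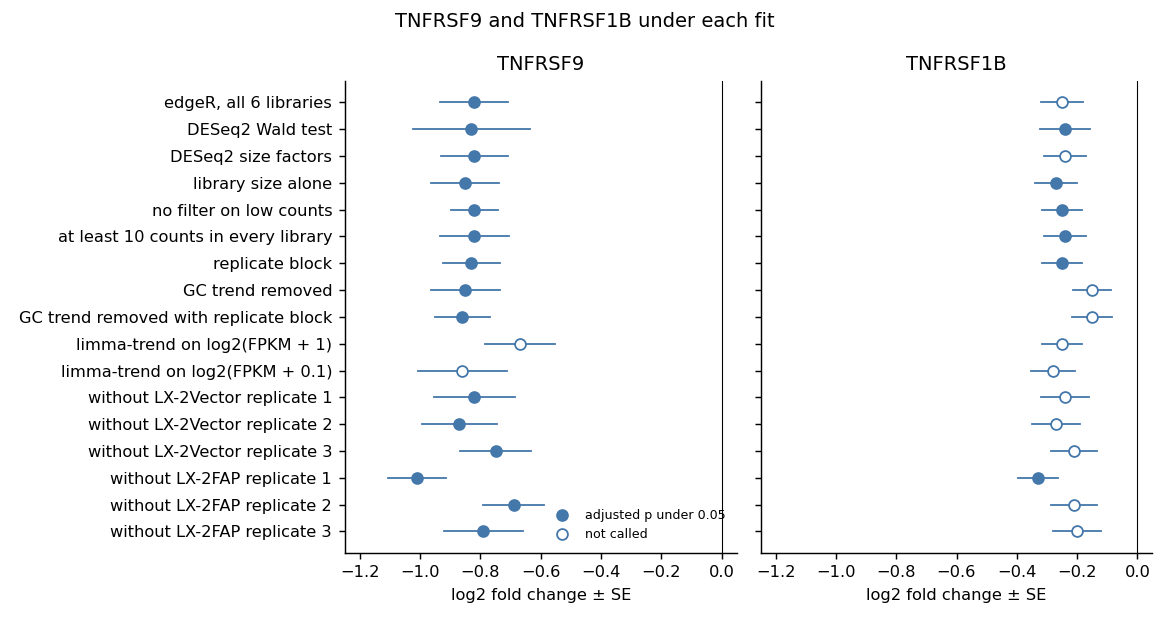
Log2 fold changes of TNFRSF9 and TNFRSF1B with their SE in the edgeR fit of all 6 libraries and in each of 16 alternatives, filled where called at an adjusted p under 0.05. TNFRSF9 stays between -1.01 and -0.67 and is open in the 2 limma-trend fits, while TNFRSF1B stays between -0.33 and -0.15 and is filled in 6 alternatives.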

How the data were processed

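RNA was sequenced from LX-2Vector and LX-2FAP cells (n = 3 each), grouped and numbered by the sample titles. The labels describe ribosomal RNA depletion, and the study's methods also name poly(A) isolation, so it is not settled which RNA classes the libraries hold. Alignment by the authors used Hisat2 2.0.5 and counting featureCounts 1.5.0-p3. The authors deposited raw counts per gene, and beside them FPKM values that they derived from these counts. The submitters' processing notes name hg18, whereas 60.7% of the gene lengths implied by the table (whole numbers within 0.01 base) equal merged exon lengths in GENCODE release 29 (GRCh38). Coordinates are those of that release. All 43 members were found there. The annotation that the authors used and whether counting was stranded were not given in the sources used here.

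The quasi-likelihood test of edgeR 4.0.16 was run on the counts, with TMM factors and the package filter (minimum count of 10, minimum total of 15), with no covariate. P-values were 2-sided and adjusted by the Benjamini-Hochberg method over 18275 genes. The study's cutoff was applied to the unadjusted p, since it is not stated whether its P was adjusted. The smallest 2-sided p of an exact permutation test of 3 against 3 is 0.1, so none was run. Pairs of replicates had a chi-square of 2.05 to 4.88 per degree of freedom, above sampling noise, so none was merged. Depth was 17355700 to 26352060 counts per library. No sequencing batch was given in the labels, so no value within batches was computed.

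Members and lists were chosen with earlier results of these data known. Full statistics are given for every called member, the 3 ligands and 5 receptors highest in FPKM and members at the study's cutoff. For the lists they are given for called genes and the 2 highest in FPKM. Other members are given by range, with values where an alternative calls them, and a few are named with their levels as partners of these, which was decided after their values were seen. Alternatives were DESeq2 1.42.0, its size factors, library size alone, other filters on low counts, a replicate block, limma-trend 3.58.1 on log2 FPKM with a pseudocount of 1 or 0.1, removal of a trend on GC content (loess, span 0.5, GC known for 98.1% of tested genes), each library left out in turn and other thresholds. Sequences are from RefSeq (GRCh38.p14), where 29 of the 43 members had a promoter entry.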

Additional observations from a re-analysis of the deposited data

How the results depend on the processing

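The ratios of the summed ligand and receptor levels, LX-2FAP over LX-2Vector, moved by less than 1 SD in the 7 alternatives computed for them. These left out each of the 6 libraries in turn or used the CPM scale, on which the receptor sums did not overlap. FAP stayed called in every alternative. The number of members called was 1 with all libraries and ranged from 1 to 6 with 1 library left out (0 to 2 higher, 1 to 4 lower), the 6 being without LX-2FAP replicate 1, where 1949 of 18794 genes were called in all, against 967 of 18275. It was 2, both lower, with the DESeq2 Wald test, with library size alone and with the replicate block. Those fits called 1031, 1048 and 975 of 18275 genes in all. With at least 10 counts in every library it was also 2, both lower, where 1045 of 16547 genes were called. With no filter on low counts it was 3, all lower, where 1606 of 41175 genes were called. It was 0 in both limma-trend fits, and 8 at an unadjusted p under 0.05, where 22.2% of all tested genes passed. Members at the study's cutoff numbered 5, 3 with DESeq2, 1 with limma-trend on log2(FPKM + 1), and 3 to 7 with 1 library left out. Adaptor and pathway genes called numbered 4, 7 with library size alone and with no filter, 1 with the GC trend removed together with the replicate block, 0 with limma-trend on either FPKM scale, and 1 to 8 with 1 library left out. TNF-responsive genes called numbered 7, 2 with the GC trend removed together with the replicate block, 0 with limma-trend on either scale, and 1 to 12 with 1 library left out. Over all genes, 454 were called with the GC trend removed and 243 with the replicate block as well, against 967. Limma-trend called 2 genes in all, although 10 and 11 members, 16 pathway genes and 16 TNF-responsive genes had an unadjusted p under 0.05 with pseudocounts of 1 and 0.1. The cause was not tested.

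Same-numbered libraries of the 2 groups did not deviate together (r = -0.039, 0.044 and -0.01), so no shared effect of the replicate number was seen. Whether same-numbered libraries were prepared together is not given in the labels, and these correlations cannot show it. With the replicate block 2 members were called, TNFRSF9 and TNFRSF1B, with 5 pathway and 8 TNF-responsive genes, where 975 of 18275 genes were called in all.

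Members below 0 numbered 23 of 33, 20 with the GC trend removed and 20 to 24 with 1 library left out. Among the genes given full statistics, the sign changed for 7, none of them called in any alternative. The log2 fold change became -0.02 for BIRC2 and -0.05 for TAB2 with the GC trend removed, with and without the block, and 0.04 and, with the block, 0.03 for CD70. TAB2 was also at -0.02, and IER3 at -0.01, with library size alone and in both limma-trend fits. With 1 library left out, CD70 reached 0.06 and 0.11 and ran from -0.25 to 0.11, CXCL8 from -0.21 to 0.10, IER3 from -0.01 to 0.08, TAB2 from -0.01 to 0.03, TNFSF12 from -0.22 to 0.04 and TNFSF4 from -0.01 to 0.16. At counts under about 10 per library, members were not tested, and changes smaller than their intervals were not detectable at this depth.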
